A study of Homo sapiens with 14 samples.

Results

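The transcript change after knockdown of HMGB2 was measured in untreated, proliferating IMR90, a widely used human fibroblast line derived from lung. The comparison rests on 4 RNA-seq libraries: siHMGB2 1 and siHMGB2 2, labelled as an HMGB2 knockdown with no drug treatment, against WT 1 and WT 2, labelled as WT with no treatment. All 4 came from cells at passage 5, grown in medium with serum. The genes described are those with a mean of at least 1 CPM (counts scaled to the total gene counts of the library) over these 4 libraries, which was the case for 12735 of the 54628 genes in the deposited counts. Of these, 12734 were tested, and the remaining one, SLCO5A1, had 145 counts in WT 1 and 1, 10 and 6 counts in WT 2, siHMGB2 1 and siHMGB2 2. The labels name no control siRNA for WT, no siRNA sequence and no time after transfection, and so transfection itself and loss of HMGB2 cannot be told apart. The labels do not say whether the numbered libraries of a group came from separate cultures or from the 2 isolates of IMR90 that were grown, so the p-values below measure only the spread between these libraries. The other 10 libraries of the series were made from cells treated with 10 µM inflachromene (ICM) for up to 6 days, alone or with another knockdown, and enter only the side-by-side values near the end.

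HMGB2 is an abundant chromatin protein of the high mobility group box family. It bends DNA through its box domains, binds without a fixed sequence motif, and acts as an architectural cofactor for many transcription factors. It is best known as a protein of dividing cells that is lost from the nucleus early in senescence, the lasting arrest in which fibroblasts secrete inflammatory factors and matrix proteases. Fibroblasts make the collagens and elastic fibres of the lung and can become contractile myofibroblasts.

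HMGB2 had 27.7 and 28.01 CPM in WT 1 and WT 2, and siHMGB2 1 and siHMGB2 2 had 3.18 and 3.52 CPM (log2 fold change -2.99, SE 0.16, edgeR adjusted p 8.28e-07). These values rest on 929 and 1021 counts in WT and on 118 and 145 counts in siHMGB2, and the arms do not overlap. HMGB1, the close relative that also leaves the nucleus in senescence, was at 373 and 366 CPM in the WT libraries and 379.8 and 337 CPM after knockdown, a log2 fold change of 0.02 with edgeR adjusted p 0.9595. HMGB3 was at 35.7 and 35.3 CPM in the WT libraries and 39.5 and 36.5 CPM after knockdown, and its log2 fold change of 0.16 was not called either (edgeR adjusted p 0.499). Outside the HMGB branch, HMGA2, an architectural protein that binds AT-rich DNA, rose from 228 and 204 CPM to 316 and 364 CPM (log2 fold change 0.72, SE 0.14, edgeR adjusted p 0.00515). HMGN3, a nucleosome-binding member, fell from 31.7 and 31.03 CPM to 17.4 and 16.3 CPM (log2 fold change -0.83, SE 0.14, edgeR adjusted p 0.00136). HMGA1 was at 316 and 292 CPM in the WT libraries and 338 and 564 CPM after knockdown, and siHMGB2 2 stood above the other libraries without a call (edgeR adjusted p 0.0581). The list's higher calls numbered 2 without WT 1 or without siHMGB2 1.

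**Figure D1:**
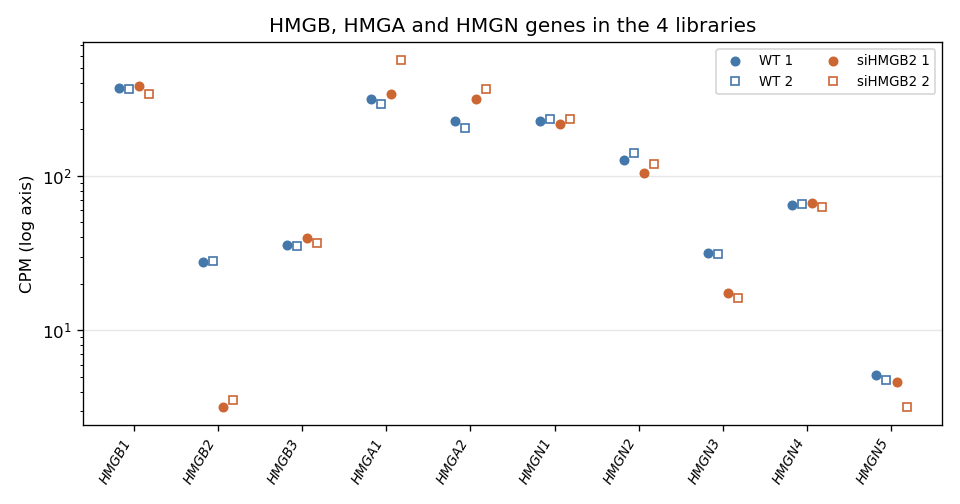
Level of the 10 tested HMGB, HMGA and HMGN genes in each library, in CPM on a log axis; circles are replicate 1 and open squares replicate 2, blue for WT and orange for siHMGB2. HMGB2 is the gene with the widest gap between the arms, and HMGN3 lower and HMGA2 higher are the other members called.

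A gene counted as called when its Benjamini-Hochberg adjusted p was below 0.05 in edgeR's quasi-likelihood F-test fitted to these 4 libraries. This called 1617 of the 12734 tested members, or 12.7%. Of these, 915 rose (7.19%) and 702 fell (5.51%). Both siHMGB2 libraries lay above both WT libraries in CPM in 23.1% of all tested members and below both in 34.1%, called or not, and every called gene was among these, so a gap between the arms is given below only as a description. The changes were moderate, with 239 genes at least 2-fold higher and 216 at least 2-fold lower, and 18 and 28 at least 4-fold. The median log2 fold change over all members was 0.006. With libraries scaled to their total counts alone, 758 members were called higher and 967 lower, so the excess of higher over lower calls depended on the scaling. Protein-coding genes held 875 of the higher and 664 of the lower calls, and lncRNA genes 25 and 27.

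**Figure D2:**
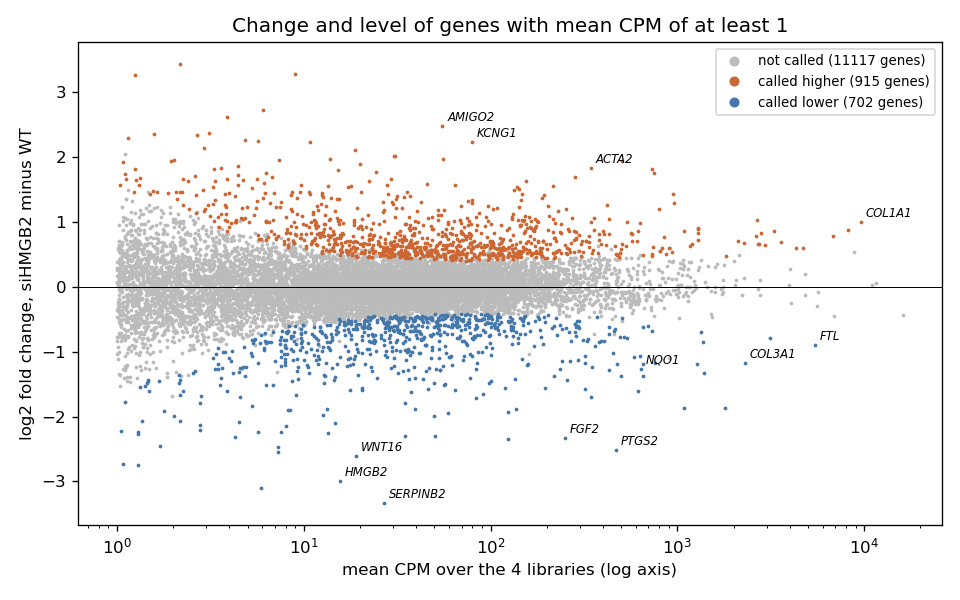
Log2 fold change (siHMGB2 minus WT) against mean CPM on a log axis for the 12734 tested members; orange points are the 915 genes called higher, blue the 702 called lower and grey those not called. Calls occur at all levels of expression, from genes near 1 CPM to COL1A1 and FTL among the most abundant.

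The spread between libraries sets how these calls should be read. Total gene counts were 33561766 to 41168932 per library, and 2.699% to 3.54% of them were mitochondrial. Among the called genes, WT 2 lay nearer to siHMGB2 than WT 1 did in 1136 (70.3%), and siHMGB2 2 lay farther from WT than siHMGB2 1 did in 1278 (79%). Leaving out WT 1 left 804 calls and leaving out siHMGB2 2 left 888. Without WT 2 there were 1252 and without siHMGB2 1 there were 2065. In all 4 of these fits 589 of the 1617 genes were called, 306 higher and 283 lower, and all 1617 kept the sign of their change in each. A kept sign is no separate check, since both siHMGB2 libraries lay on the same side of both WT libraries in every called gene. Each of these fits leaves 1 arm with a single library, so its spread comes from the pair in the other arm alone. A call lost or gained in such a fit therefore also depends on that pair. It does not by itself show that a change rests on the library left out. A fit of all 14 libraries of the series, which shares 1 estimate of the spread with the drug-treated groups, called 0 members by edgeR at the adjusted threshold and 551 at an unadjusted p under 0.05, and the other fits run are in the closing section.

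Of the 12 called genes averaging 10 CPM or more that had the highest fold changes, 11 are reported here, led by AMIGO2, a leucine-rich repeat adhesion protein. It was at 16.4 and 18.4 CPM in the WT libraries and 79.4 and 107 CPM after knockdown (log2 fold change 2.49, SE 0.16, edgeR adjusted p 3.94e-06). KCNG1, a modifier subunit of voltage-gated potassium channels, was at 31.5 and 26.4 CPM in the WT libraries and 104 and 155 CPM after knockdown (log2 fold change 2.23, SE 0.18, edgeR adjusted p 2.19e-05). FLT1, a receptor for VEGF, rose from 11.2 and 13.99 CPM to 45.5 and 51.5 CPM. In all 3 genes both siHMGB2 libraries lay far above both WT libraries. ADAM19, a membrane metalloprotease, rose from 180.3 and 251 CPM to 655 and 927 CPM, and FSTL3, a secreted antagonist of activins, from 21.99 and 24.6 CPM to 72.95 and 102 CPM. The remaining genes of this set were GALNT6 (2.23), the WNT receptor FZD8 (2.11), the chloride channel ANO1 (2.02), BAALC (1.97), the protease-activated receptor F2RL1 (1.89) and ACTA2 (1.83), with log2 fold changes in parentheses. These 11 kept their call when any 1 library was left out.

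The 12 lowest, after the same rule, were led by SERPINB2, a plasminogen activator inhibitor, at 66.7 and 31.4 CPM in the WT libraries and 7.14 and 2.31 CPM after knockdown (log2 fold change -3.33, SE 0.40, edgeR adjusted p 1.69e-04). The size of its change rested on single libraries, with a log2 fold change of -2.68 without WT 1, -2.73 without siHMGB2 2 and -4.34 without siHMGB2 1. WNT16, a WNT ligand, was at 35.7 and 29.9 CPM in the WT libraries and 6.54 and 3.84 CPM after knockdown (log2 fold change -2.602, SE 0.21, edgeR adjusted p 2.19e-05). FGF2, the basic fibroblast growth factor, fell from 489.8 and 353 CPM to 99.1 and 61.6 CPM (log2 fold change -2.33, SE 0.21, edgeR adjusted p 3.86e-05). Both WNT16 and FGF2 showed a wide gap between the arms. ASL, the urea cycle enzyme argininosuccinate lyase, fell from 255 and 160.4 CPM to 44.3 and 33.6 CPM, and CD36, a scavenger and fatty acid receptor, from 25.8 and 22.03 CPM to 6.73 and 3.98 CPM. KCNJ2, an inwardly rectifying potassium channel, was at 21.01 and 19.6 CPM in the WT libraries and 4.98 and 4.86 CPM after knockdown, with nearly equal values within each arm. The others were HMGB2 itself, PTGS2 (-2.51), RASL11A (-2.299), G0S2 (-2.29), the interleukin 13 decoy receptor IL13RA2 (-2.25) and ARHGAP6 (-1.99). All 12 kept their call when any 1 library was left out, but without siHMGB2 1 the log2 fold change of PTGS2 was -3.45, that of G0S2 -2.95 and that of IL13RA2 -3.14, and IL13RA2 was not called by DESeq2 (adjusted p 0.0655). Without WT 1 the log2 fold change of IL13RA2 was -1.54.

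**Figure D3:**
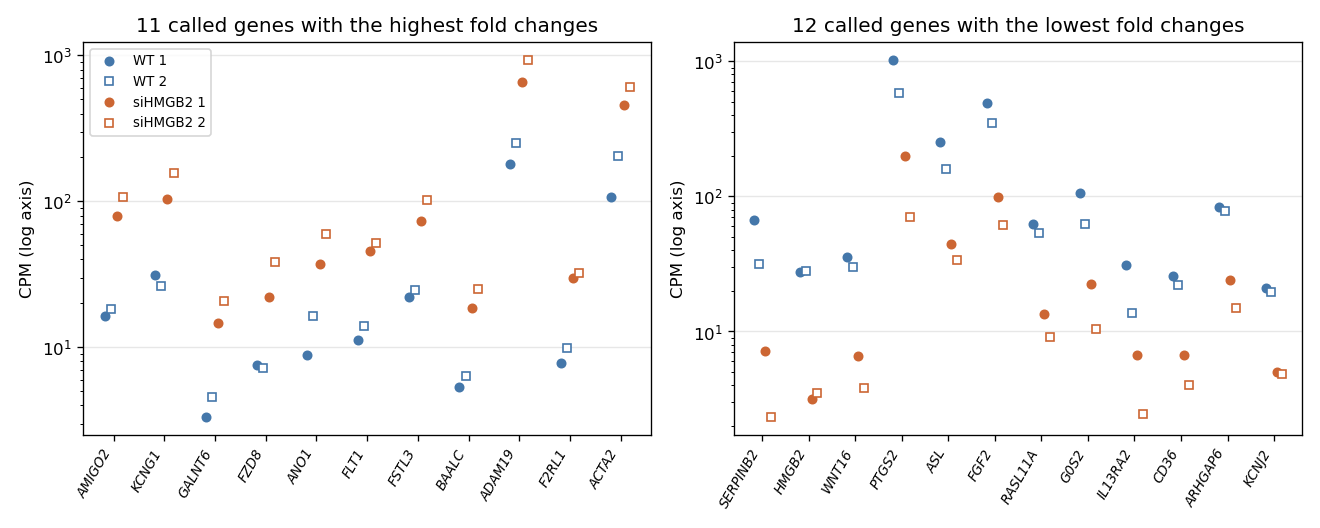
CPM on a log axis of 11 of the 12 called genes with the highest (left) and the 12 with the lowest (right) log2 fold changes for genes averaging 10 CPM or more, in each library; circles are replicate 1, open squares replicate 2. In every gene both siHMGB2 libraries (orange) lie on the same side of both WT libraries (blue).

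Genes were then read by list, and each count of called members stands beside 7.19% higher and 5.51% lower over all tested members. The contractile list held genes of the actin stress fibre apparatus that mark myofibroblasts. Of 24 tested members, 17 rose and 1 fell, with a median log2 fold change of 0.68 against 0.006 over all members. ACTA2, alpha smooth muscle actin and the classical myofibroblast marker, was at 107 and 206 CPM in the WT libraries and 456 and 608 CPM after knockdown (log2 fold change 1.83, SE 0.24, edgeR adjusted p 3.56e-04). TAGLN, an actin-binding protein, rose from 261 and 454 CPM to 934 and 1361 CPM (log2 fold change 1.75, SE 0.24, edgeR adjusted p 4.02e-04), and CNN1, a calponin that damps actomyosin, from 10.1 and 12.9 CPM to 31.7 and 43.2 CPM (log2 fold change 1.77, SE 0.18, edgeR adjusted p 5.64e-05). In each of these 3 genes WT 2 was the higher WT library and siHMGB2 2 the higher knockdown library, and the arms do not overlap. The tropomyosin TPM1 rose from 502 and 649 CPM to 1278 and 1411 CPM, and the myosin light chain MYL9 from 384 and 489 CPM to 669 and 979 CPM. The member that fell was MRTFB, a coactivator of serum response factor, at 19.3 and 23.5 CPM in the WT libraries and 14.5 and 11.6 CPM after knockdown (log2 fold change -0.65, SE 0.16, edgeR adjusted p 0.0193). Its call was lost without WT 2 or without siHMGB2 2. MYOCD, another coactivator of serum response factor in this list, was called higher. It went from 37.2 and 56.2 CPM to 74.6 and 81.7 CPM (log2 fold change 0.81, and 0.54 without WT 1). Serum response factor itself (SRF) was at 80.4 and 88.3 CPM in the WT libraries and 73.6 and 102 CPM after knockdown and was not called (edgeR adjusted p 0.691). The higher calls numbered 10 without WT 1, 19 without WT 2, 17 without siHMGB2 1 and 10 without siHMGB2 2.

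Markers of smooth muscle and pericytes, cell types that share these proteins, moved with the contractile genes. Of 8 tested markers 6 rose (4 without siHMGB2 2). CNN1, ACTG2, LMOD1 and MYOCD of these are also in the contractile list and NOTCH3 is in the Notch list. The summed level of the 10 listed markers was 865 and 868 CPM in WT and 1150 and 1094 CPM in siHMGB2. MYH11, the defining myosin of differentiated smooth muscle, had 0 counts in all 4 libraries, and DES was at or below 0.462 CPM in each. RGS5, a pericyte marker, was at 603 and 457 CPM in the WT libraries and 480.5 and 242 CPM after knockdown and was not called. In bulk RNA, more cells of a type and more RNA per cell cannot be told apart. Of 14 fibroblast markers 13 had a mean of at least 1 CPM, and the remaining one, TBX4, was at 0.0486 to 0.329 CPM. COL1A2 was at 6385 to 11054 CPM and DCN at 899 to 1073 CPM over the 4 libraries, while S100A4 was at 2.11 to 2.82 CPM. Of the 13 tested, COL1A1, PDGFRB and VIM rose and COL3A1, PDGFRA and TCF21 fell (2 and 2 without siHMGB2 2). The epithelial markers KRT8 and KRT18 rose, KRT18 from 46.1 and 42.7 CPM to 56.04 and 76.8 CPM, and both calls were lost without siHMGB2 2, that of KRT8 also without WT 1 and that of KRT18 also without WT 2, while SFTPC, NKX2-1 and ESRP1 had 0 counts. KRT8 and KRT18 lie side by side with overlapping exons on opposite strands. Of the 12 epithelial markers 5 had 0 counts in all 4 libraries, CDH5 among the endothelial markers was at 0, and 6 of the 12 immune markers were at 0. The part of any other cell type in the contractile change was not tested.

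The contractile promoters are shown because serum response factor is known to bind a CArG box in many smooth muscle genes. A CArG box was found on either strand in the window from 250 bases before to 50 bases after the RefSeq start in 6 of 21 listed genes with a window (28.6%), against 1.09% of the 9928 members with one and 2.74% of those called higher. ACTG2, enteric smooth muscle actin, rose from 76.4 and 149 CPM to 289.9 and 344 CPM (log2 fold change 1.56, SE 0.23, edgeR adjusted p 7.61e-04), and CNN2, a calponin of non-muscle cells, from 267 and 316 CPM to 473 and 672 CPM (log2 fold change 1.04, SE 0.18, edgeR adjusted p 0.00185). The other 4 genes with a match were FLNA, MYLK, SRF and TPM4, of which FLNA was called, though not without WT 1 or without siHMGB2 2. The 250 bases before each start follow, 5′ to 3′ on the gene's strand in RefSeq GRCh38.p14, with CArG boxes in capitals. The ACTG2 window is chr2:73892758-73893007 on the plus strand and holds 2 boxes, beginning 110 and 73 bases before the start. The CNN2 window is chr19:1026358-1026607 on the plus strand and holds 1 box, beginning 89 bases before the start. A match describes letters in a window and is not shown here to be a bound site.
ACTG2: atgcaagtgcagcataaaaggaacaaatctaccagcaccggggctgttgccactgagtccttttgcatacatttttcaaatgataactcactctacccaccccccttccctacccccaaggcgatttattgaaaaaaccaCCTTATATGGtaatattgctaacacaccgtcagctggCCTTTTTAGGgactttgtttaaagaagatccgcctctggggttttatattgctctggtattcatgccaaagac
CNN2: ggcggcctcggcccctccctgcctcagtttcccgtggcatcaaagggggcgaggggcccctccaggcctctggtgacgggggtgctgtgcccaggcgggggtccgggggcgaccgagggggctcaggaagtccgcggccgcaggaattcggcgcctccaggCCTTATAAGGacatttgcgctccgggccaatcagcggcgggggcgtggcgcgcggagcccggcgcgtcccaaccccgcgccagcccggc

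Of 27 genes that modify, process and crosslink collagen 15 rose and 0 fell (median 0.58). LOXL2, which crosslinks collagen, was at 483 and 574 CPM in the WT libraries and 1213 and 1501 CPM after knockdown (log2 fold change 1.43, SE 0.16, edgeR adjusted p 1.24e-04), and ADAMTS2, which removes the amino-terminal propeptide, was at 70.2 and 93.9 CPM in the WT libraries and 191 and 232 CPM after knockdown (log2 fold change 1.43, SE 0.16, edgeR adjusted p 1.12e-04). The prolyl hydroxylase P4HA2 rose from 111 and 132 CPM to 228 and 242 CPM, and LOX from 609 and 681 CPM to 1079.5 and 1027 CPM. All 4 were called without any 1 library, but the list's count of higher genes was 7 without WT 1 and 8 without siHMGB2 2, against 11 without WT 2 and 16 without siHMGB2 1.

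The collagens themselves moved in both directions, 10 of 24 higher and 5 lower (median 0.45). COL5A1, a chain that nucleates fibrils, was at 421 and 578 CPM in the WT libraries and 849 and 1344 CPM after knockdown (log2 fold change 1.202, SE 0.21, edgeR adjusted p 0.00235), and COL12A1, which sits on fibril surfaces, was at 1627 and 2012 CPM in the WT libraries and 3402 and 3674 CPM after knockdown (log2 fold change 1.03, SE 0.16, edgeR adjusted p 8.89e-04). COL3A1, the main partner of type I collagen in soft tissue, went the other way, at 2867 and 3606 CPM in the WT libraries and 1312 and 1419 CPM after knockdown (log2 fold change -1.18, SE 0.16, edgeR adjusted p 3.80e-04). COL14A1, a fibril-associated collagen related to COL12A1, also fell, from 45.9 and 52.6 CPM to 25.05 and 22.5 CPM (log2 fold change -0.99, SE 0.14, edgeR adjusted p 4.53e-04). COL1A1, the most abundant gene called, was at 5093 and 8116 CPM in the WT libraries and 10997 and 14223 CPM after knockdown (log2 fold change 1.000, SE 0.21, edgeR adjusted p 0.00639). This call was lost without siHMGB2 2 (log2 fold change 0.79, edgeR adjusted p 0.0834) and in DESeq2 (adjusted p 0.0684). The higher collagens numbered 6 without WT 1, 10 without WT 2, 13 without siHMGB2 1 and 4 without siHMGB2 2. The lower ones numbered 2, 3, 4 and 3 in the same order.

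In the list of elastic fibre, glycoprotein and proteoglycan genes 16 of 35 rose and 1 fell (median 0.41). ELN, the elastin precursor, was at 69.4 and 88.4 CPM in the WT libraries and 197 and 268 CPM after knockdown (log2 fold change 1.62, SE 0.17, edgeR adjusted p 7.57e-05), and POSTN, a matricellular protein of wound repair, was at 69.2 and 83.5 CPM in the WT libraries and 199 and 214 CPM after knockdown (log2 fold change 1.502, SE 0.14, edgeR adjusted p 3.86e-05). The microfibril protein MFAP2 rose from 15.6 and 15.9 CPM to 35.95 and 38.5 CPM. The gene that fell was THBS2, an antiangiogenic thrombospondin, at 367 and 271 CPM in the WT libraries and 122 and 114 CPM after knockdown (log2 fold change -1.37, SE 0.16, edgeR adjusted p 1.34e-04), while its relative THBS1 rose from 1760.3 and 2384 CPM to 3302 and 3711 CPM, a call lost without siHMGB2 2. Higher calls in this list numbered 10 without WT 1, 15 without WT 2, 17 without siHMGB2 1 and 9 without siHMGB2 2.

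Integrins and focal adhesion genes link this matrix to actin, and 13 of 27 rose with 0 lower (median 0.54). ITGA3 was at 77.7 and 98.7 CPM in the WT libraries and 156 and 238 CPM after knockdown (log2 fold change 1.23, SE 0.19, edgeR adjusted p 9.02e-04) and the fibronectin receptor chain ITGA5 at 438 and 467 CPM in the WT libraries and 701 and 865 CPM after knockdown (log2 fold change 0.86, SE 0.15, edgeR adjusted p 0.00254). SDC2, a heparan sulfate proteoglycan, rose from 109.9 and 138 CPM to 235 and 238 CPM. The count was 5 without WT 1, 13 without WT 2, 17 without siHMGB2 1 and 7 without siHMGB2 2, where ITGA3, ITGA5 and SDC2 kept their calls in all 4 fits.

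Matrix proteases and their inhibitors divided evenly, with 8 of 36 higher and 8 lower (median 0.08). MMP1, the interstitial collagenase, fell from 798 and 442 CPM to 278 and 211 CPM (log2 fold change -1.28, SE 0.23, edgeR adjusted p 0.00244), and ADAMTS5, an aggrecanase, from 196 and 203 CPM to 62.3 and 37.9 CPM (log2 fold change -1.93, SE 0.19, edgeR adjusted p 4.48e-05). MMP14, a membrane collagenase that activates other proteases, rose from 939.8 and 915 CPM to 1432 and 1875 CPM (log2 fold change 0.901, SE 0.16, edgeR adjusted p 0.00267). The secreted and the membrane collagenase moved in opposite directions. The higher calls numbered 4 without WT 1 or without siHMGB2 2, and 5 with total count scaling.

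**Figure D4:**
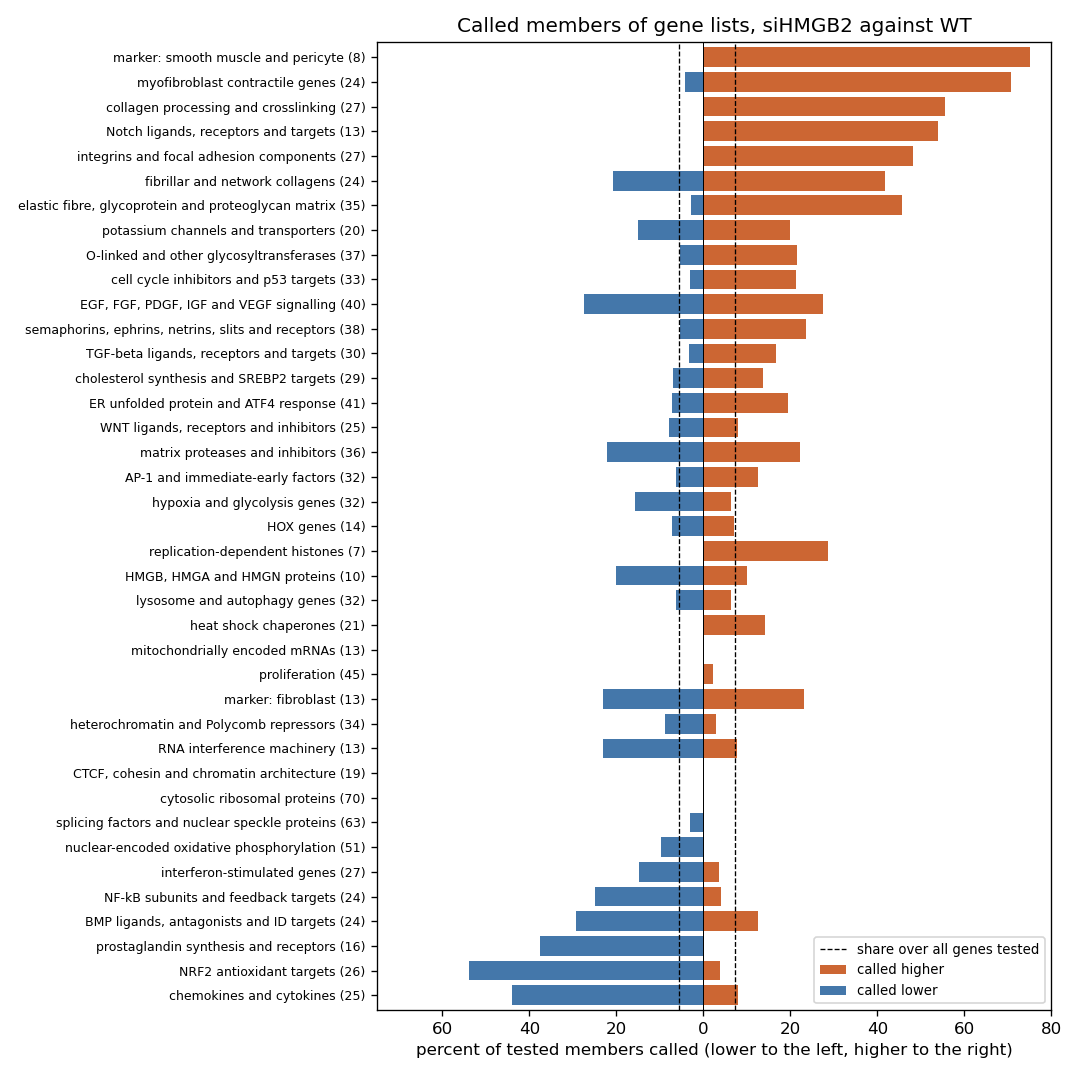
Percent of the tested members of each gene list called higher (orange, right) or lower (blue, left), ordered by the list's median log2 fold change; the number tested is in parentheses and dashed lines mark 7.19% higher and 5.51% lower over all tested members. Contractile, collagen processing, Notch and integrin lists lie far to the right of the line, and the chemokine, NRF2 and prostaglandin lists far to the left.

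Signals that act on the same cells were also read by ligand, receptor and target. In the TGF-beta list 5 of 30 rose and 1 fell (median 0.20). The ligand TGFB1 was at 134 and 137 CPM in the WT libraries and 237 and 315 CPM after knockdown (log2 fold change 1.09, SE 0.16, edgeR adjusted p 5.36e-04), and LTBP2, of the latent TGF-beta binding protein family, was at 211 and 268 CPM in the WT libraries and 378 and 573 CPM after knockdown (log2 fold change 1.06, SE 0.19, edgeR adjusted p 0.00277). FST, follistatin, which captures activins, fell from 673 and 558 CPM to 342 and 241 CPM (log2 fold change -1.01, SE 0.17, edgeR adjusted p 0.00193), whereas the related FSTL3 rose as given above. In the BMP list 3 of 24 rose and 7 fell (median -0.24). BMP4 was at 49.7 and 48.5 CPM in the WT libraries and 23.5 and 19.4 CPM after knockdown (log2 fold change -1.13, SE 0.14, edgeR adjusted p 2.02e-04), and the BMP receptor ACVRL1 fell from 90.4 and 79.5 CPM to 49.5 and 44.4 CPM. TWSG1, a secreted BMP modulator, fell from 383 and 433 CPM to 194 and 164 CPM. The lower calls in the BMP list numbered 6 without WT 1, 8 without WT 2, 10 without siHMGB2 1 and 5 without siHMGB2 2, while the higher calls fell to 0 without WT 1 or without siHMGB2 2.

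Notch genes, whose receptors and ligands are carried on neighbouring cells, rose in 7 of 13 members with 0 lower (median 0.55). The ligand JAG1 was at 43.2 and 53.4 CPM in the WT libraries and 87.95 and 94.1 CPM after knockdown (log2 fold change 0.98, SE 0.14, edgeR adjusted p 4.80e-04) and the receptor NOTCH3 at 87.3 and 116 CPM in the WT libraries and 176 and 236 CPM after knockdown (log2 fold change 1.09, SE 0.17, edgeR adjusted p 0.00115). HES1, a transcriptional repressor induced by Notch, was at 8.79 and 8.75 CPM in the WT libraries and 19.3 and 23.5 CPM after knockdown (log2 fold change 1.35, SE 0.16, edgeR adjusted p 1.69e-04). HEY1, another target, was at 17.5 and 15.4 CPM in the WT libraries and 13.9 and 9.96 CPM after knockdown and was not called. The higher calls numbered 4 without WT 1 or without siHMGB2 2, 5 without WT 2 and 8 without siHMGB2 1, and JAG1, NOTCH3 and HES1 were called each time.

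Growth factors and their receptors moved in both directions, with 11 of 40 higher and 11 lower (median 0.24). Both EREG and NRG1, ligands of the EGF receptor family, fell, EREG from 97.4 and 71.7 CPM to 37.7 and 19.2 CPM (log2 fold change -1.51, SE 0.24, edgeR adjusted p 0.00103) and NRG1 from 534 and 431 CPM to 202 and 109 CPM (log2 fold change -1.58, SE 0.22, edgeR adjusted p 5.38e-04). HGF, the ligand of the MET receptor, fell from 474 and 424 CPM to 225 and 154 CPM (log2 fold change -1.18, SE 0.17, edgeR adjusted p 5.91e-04). VEGFC rose from 59.1 and 57.3 CPM to 98.2 and 97.2 CPM (log2 fold change 0.81, SE 0.12, edgeR adjusted p 7.73e-04) and ANGPTL4 from 23.5 and 18.3 CPM to 40.7 and 52.2 CPM. The 2 PDGF receptors parted, PDGFRB from 164 and 201 CPM up to 306 and 422 CPM and PDGFRA from 1555 and 1791 CPM down to 1099 and 877 CPM (log2 fold change -0.696, SE 0.16, edgeR adjusted p 0.0108). The PDGFRA call was lost without siHMGB2 2. Higher calls numbered 7 without WT 1 and lower calls 7 without siHMGB2 2.

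Of 25 chemokines and cytokines 11 fell and 2 rose (median -0.91), with a wide spread between libraries. LIF, a cytokine of the interleukin 6 family, was at 897 and 566 CPM in the WT libraries and 315 and 223 CPM after knockdown (log2 fold change -1.38, SE 0.21, edgeR adjusted p 8.94e-04). TNFRSF11B, a decoy receptor, was at 819 and 801 CPM in the WT libraries and 436 and 300.1 CPM after knockdown (log2 fold change -1.07, SE 0.17, edgeR adjusted p 0.00118). CXCL5, a neutrophil attractant, was at 139 and 51.5 CPM in the WT libraries and 35.5 and 11.999 CPM after knockdown (log2 fold change -1.95, SE 0.42, edgeR adjusted p 0.00872). In CXCL5 the libraries of each arm differed by more than 2-fold, and WT 2 was closer to siHMGB2 1 than to WT 1. The 2 that rose were IL32, at 14.7 and 14.02 CPM in the WT libraries and 28.2 and 31.2 CPM after knockdown (log2 fold change 1.11, SE 0.14, edgeR adjusted p 2.55e-04), and CSF1, at 44.4 and 57.4 CPM in the WT libraries and 76.4 and 100.2 CPM after knockdown (log2 fold change 0.86, SE 0.16, edgeR adjusted p 0.00343). CXCL8, the best-known chemokine of senescent fibroblasts, was at 1759 and 747 CPM in the WT libraries and 863 and 259 CPM after knockdown and was not called (edgeR adjusted p 0.119), and IL6 was at 505 and 288 CPM in the WT libraries and 389 and 165 CPM after knockdown (edgeR adjusted p 0.407). Both were called lower without WT 2 and without siHMGB2 1, where IL6 had log2 fold changes of -0.81 and -1.20. The lower calls numbered 8 without WT 1, 17 without WT 2 or without siHMGB2 1, and 3 without siHMGB2 2. The 3 were LIF, TNFRSF11B and CCL20, and CXCL5 without siHMGB2 2 had a log2 fold change of -1.37 with edgeR adjusted p 0.0887. The log2 fold change of CXCL5 was -1.06 without WT 1 and -2.92 without siHMGB2 1, both called. DESeq2 called 4 lower, namely LIF, TNFRSF11B, CCL7 and TNFSF15, and neither CXCL5 (adjusted p 0.196) nor CCL20 (0.178).

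Chemokine promoters are shown because NF-kB is known to drive these genes. An NF-kB site was found on either strand in 9 of 19 listed genes with a window (47.4%), against 13.1% of all members with a window, 16.2% of those called higher and 9.64% of those called lower. Of the 9, CCL20, CXCL3 and CXCL5 were called lower and IL32 higher. CXCL1, CXCL2, CXCL6, CXCL10 and IL6 were not called. The share was as high in the integrin and focal adhesion list, where genes rose (10 of 21, 47.6%), and was 36.4% in the Notch list (4 of 11), where genes also rose. CCL20 was at 16.6 and 8.31 CPM in the WT libraries and 3.58 and 0.534 CPM after knockdown (log2 fold change -2.55, SE 0.52, edgeR adjusted p 0.00616), with a log2 fold change of -1.74 without siHMGB2 2, -4.47 without siHMGB2 1 and -1.97 without WT 1. Its window is chr2:227813592-227813841 on the plus strand and holds 1 match, beginning 79 bases before the start. The CXCL5 window is chr4:73998678-73998927 on the minus strand, where 2 overlapping matches begin 91 and 90 bases before the start. The bases before each start follow, as above, with the matches in capitals.
CCL20: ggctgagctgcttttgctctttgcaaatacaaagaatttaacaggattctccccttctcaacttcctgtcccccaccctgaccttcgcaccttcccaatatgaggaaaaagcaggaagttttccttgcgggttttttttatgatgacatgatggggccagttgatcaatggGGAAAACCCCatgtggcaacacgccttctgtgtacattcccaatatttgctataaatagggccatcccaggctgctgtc
CXCL5: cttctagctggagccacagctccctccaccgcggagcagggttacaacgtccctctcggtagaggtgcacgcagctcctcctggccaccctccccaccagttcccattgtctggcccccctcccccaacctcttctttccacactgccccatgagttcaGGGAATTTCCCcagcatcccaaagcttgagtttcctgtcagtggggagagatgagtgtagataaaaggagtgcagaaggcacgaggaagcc

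In the list of NF-kB subunits and feedback targets 6 of 24 fell and 1 rose (median -0.24), and without WT 1 or without siHMGB2 2 only 2 were lower. SOD2, the mitochondrial superoxide dismutase and a known NF-kB target, was at 1935 and 1658 CPM in the WT libraries and 941 and 572 CPM after knockdown (log2 fold change -1.19, SE 0.20, edgeR adjusted p 0.00174). It shares exon sequence with ACAT2 on the opposite strand. Of 27 interferon-stimulated genes 4 fell and 1 rose, and IFIT1 went from 7.002 and 6.996 CPM to 3.39 and 2.33 CPM (log2 fold change -1.23, SE 0.25, edgeR adjusted p 0.005304). The lower interferon-stimulated genes numbered 1 without WT 1 and 2 without WT 2 or without siHMGB2 2.

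AP-1 and immediate-early factors, which cells induce within a short time of a stimulus, had 4 of 32 members called higher and 2 lower (median 0.07). The share called was 18.8%, not far from the 12.7% over all tested members. NR4A2, a nuclear receptor of this class, fell from 318 and 274 CPM to 121 and 71.1 CPM (log2 fold change -1.57, SE 0.20, edgeR adjusted p 2.55e-04), and FOS, a subunit of AP-1, fell from 57.6 and 49.7 CPM to 38.2 and 24.1 CPM. KLF2, a zinc finger factor, rose from 6.47 and 7.85 CPM to 9.86 and 20.5 CPM (log2 fold change 1.16, SE 0.27, edgeR adjusted p 0.0135), mostly in siHMGB2 2, without which it was not called (log2 fold change 0.52, edgeR adjusted p 0.182). The related KLF6 rose from 68.7 and 79.7 CPM to 99.9 and 118 CPM, ATF3, a stress-induced factor, from 21.1 and 21.8 CPM to 32.9 and 32.8 CPM, and JUN, the partner of FOS in AP-1, from 99.4 and 92.7 CPM to 128 and 145 CPM. Without WT 1 or without siHMGB2 2 there were 1 higher and 1 lower call, and without siHMGB2 1 there were 7 and 4.

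In the prostaglandin list 6 of 16 fell and 0 rose (median -0.35). PTGS2, the inducible cyclooxygenase, was at 1019 and 580.5 CPM in the WT libraries and 199 and 69.9 CPM after knockdown (log2 fold change -2.51, SE 0.36, edgeR adjusted p 5.90e-04), and its log2 fold change was -1.95 without siHMGB2 2 and -3.45 without siHMGB2 1. PLA2G4A, the phospholipase that frees arachidonic acid for it, fell from 65.4 and 44.6 CPM to 29.6 and 15.2 CPM (log2 fold change -1.24, SE 0.24, edgeR adjusted p 0.00495). PTGES, which makes prostaglandin E from the PTGS2 product, fell from 89.8 and 55.9 CPM to 38.2 and 19.9 CPM, a call lost without siHMGB2 2 (log2 fold change -0.88, edgeR adjusted p 0.0524). These genes form successive steps, and PTGS1, the constitutive enzyme of the same step as PTGS2, was at 504 and 513 CPM in the WT libraries and 413 and 364 CPM after knockdown and not called (edgeR adjusted p 0.1702). The lower calls numbered 3 without WT 1, 5 without WT 2 or without siHMGB2 1, and 2 without siHMGB2 2. DESeq2 called 4 lower, PLA2G4A and PTGES not among them.

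NRF2 is the transcription factor of the antioxidant response. Of 26 targets 14 fell and 1 rose, with a median of -0.62, and 25 of the 26 had a log2 fold change below 0. NQO1, a quinone reductase and the standard reporter of NRF2, was at 944 and 886 CPM in the WT libraries and 380.3 and 349 CPM after knockdown (log2 fold change -1.26, SE 0.14, edgeR adjusted p 1.12e-04). TXNRD1, thioredoxin reductase, was at 912 and 928 CPM in the WT libraries and 549 and 549 CPM after knockdown (log2 fold change -0.68, SE 0.14, edgeR adjusted p 0.00616), and its substrate TXN fell from 445 and 409 CPM to 244 and 215 CPM. In these 3 genes the libraries within an arm lay close together and the arms far apart. FTL, the ferritin light chain, fell from 7676 and 6728 CPM to 3777 and 3628 CPM (log2 fold change -0.895, SE 0.15, edgeR adjusted p 0.00151), and SLC7A11, the cystine importer, from 275 and 302 CPM to 169 and 163 CPM. AKR1C1 fell from 140.0 and 119 CPM to 48.2 and 27.7 CPM, and its near-identical relative AKR1C2 from 11.5 and 8.94 CPM to 4.01 and 2.87 CPM, so reads of the pair may have been divided between them. HMOX1, heme oxygenase, was the member that rose, at 51.9 and 54.5 CPM in the WT libraries and 89.4 and 107 CPM after knockdown (log2 fold change 0.95, SE 0.13, edgeR adjusted p 5.03e-04). NFE2L2, the gene for NRF2, was at 294 and 287 CPM in the WT libraries and 254 and 187 CPM after knockdown and its inhibitor KEAP1 at 86.8 and 82.7 CPM in the WT libraries and 60.3 and 67.1 CPM after knockdown, neither called (edgeR adjusted p 0.206 and 0.102). The lower calls numbered 11 without WT 1, 13 without WT 2, 16 without siHMGB2 1 and 13 without siHMGB2 2.

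The antioxidant response element is the known NRF2 binding motif. Its core, searched as TGACNNNGC on both strands, was found in 4 of 18 listed genes with a window (22.2%), against 15.4% of all members with one and 16.4% of those called lower, so this list lay close to the background. TXNRD1 is shown as a gene that fell and holds a match, in chr12:104215529-104215778 on the plus strand with the match beginning 99 bases before the start. The AP-1 site, searched as TGANTCA, was in 4.66% of all windows, 5.21% of those called higher and 6.25% of those called lower.
TXNRD1: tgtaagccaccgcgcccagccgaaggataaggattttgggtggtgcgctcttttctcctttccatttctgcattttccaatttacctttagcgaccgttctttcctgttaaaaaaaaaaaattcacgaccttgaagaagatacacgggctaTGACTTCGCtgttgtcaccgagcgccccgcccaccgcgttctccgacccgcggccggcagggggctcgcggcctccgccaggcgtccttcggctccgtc

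**Figure D5:**
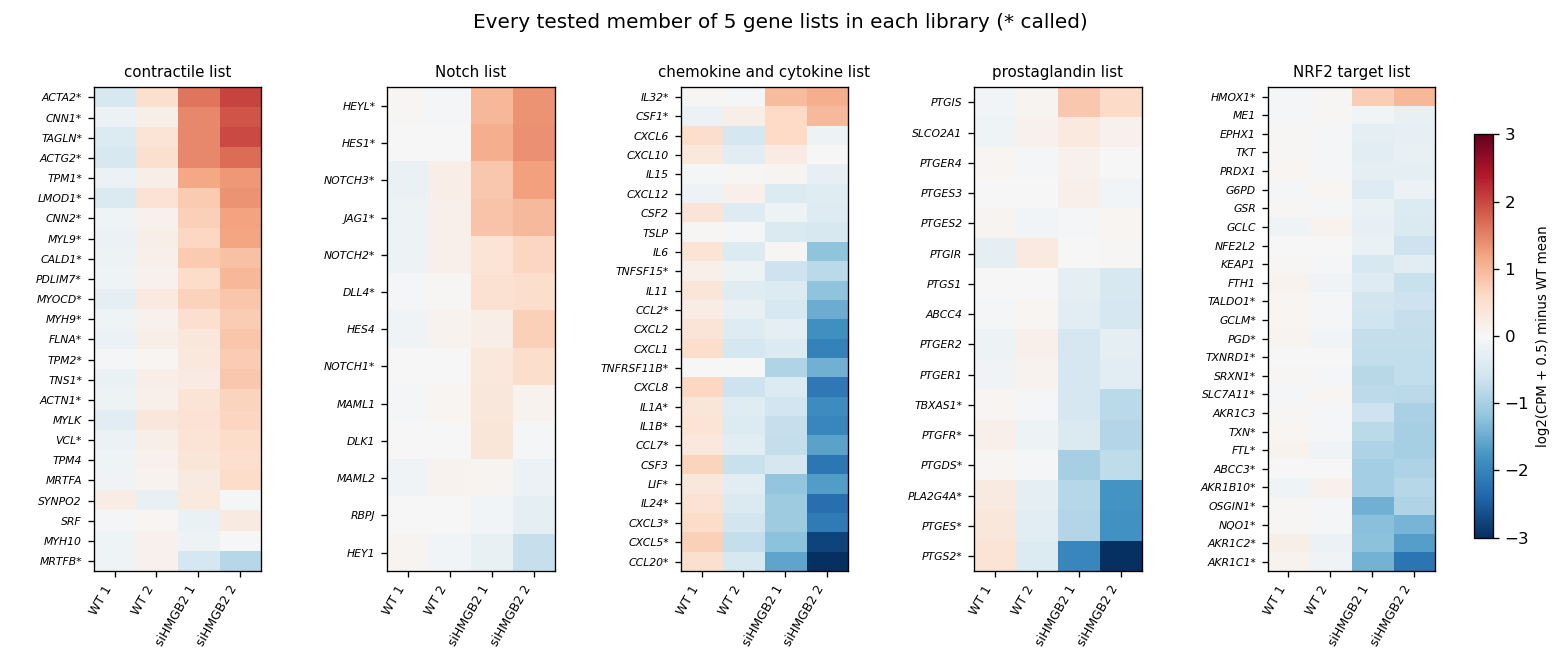
Log2(CPM + 0.5) in each library minus the mean of the WT libraries, for every tested member of 5 lists, ordered by log2 fold change; red is higher and blue lower than WT, and an asterisk marks a called gene. NRF2 targets are similar within each arm, whereas many chemokines differ between WT 1 and WT 2 and are lowest in siHMGB2 2.

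Few division genes and, besides HMGB2, no gene of a panel of 13 study genes was called. The panel holds BANF1, SRRM2, SON and CTCF beside genes known from senescence. The share called was 7.69%, against 12.7% over all tested members. In the proliferation list 1 of 45 members rose and 0 fell (median -0.02). The 1 was CCNA2, cyclin A2, at 18.5 and 19.1 CPM in the WT libraries and 25.1 and 27.2 CPM after knockdown (log2 fold change 0.54, SE 0.14, edgeR adjusted p 0.0217). Its call was lost without WT 1, without WT 2 and without siHMGB2 2, where its log2 fold change was 0.52, 0.56 and 0.47. MKI67, the proliferation antigen, was at 32.7 and 38.8 CPM in the WT libraries and 30.5 and 37.8 CPM after knockdown, and LMNB1, the lamin lost in senescence, at 21.4 and 19.9 CPM in the WT libraries and 18.7 and 19.7 CPM after knockdown, neither called (edgeR adjusted p 0.996 and 0.913). Among cell cycle inhibitors and p53 targets 7 of 33 rose and 1 fell (median 0.26). CDKN2B, which encodes the inhibitor p15, was at 20.3 and 18.6 CPM in the WT libraries and 42.3 and 44.1 CPM after knockdown (log2 fold change 1.21, SE 0.14, edgeR adjusted p 1.08e-04). Its neighbour CDKN2A was at 23.5 and 23.1 CPM in the WT libraries and 28.5 and 32.1 CPM after knockdown, just short of a call (edgeR adjusted p 0.0545), and CDKN1A was at 1186 and 1225 CPM in the WT libraries and 1281 and 1468 CPM after knockdown (edgeR adjusted p 0.325). GDF15, a stress-induced cytokine counted with the p53 targets, fell from 614 and 374 CPM to 217 and 186 CPM (log2 fold change -1.23, SE 0.20, edgeR adjusted p 0.00129). The higher calls in this list numbered 3 without WT 1, 2 without WT 2, 10 without siHMGB2 1 and 5 without siHMGB2 2.

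Splicing factors and CTCF are the machinery named in the study's title. Of 63 splicing factor and nuclear speckle genes 0 rose and 2 fell (median -0.14), namely SRSF11 and SNRPD3. Called or not, 54 of the 63 had a log2 fold change below 0. In 43 both siHMGB2 libraries lay below both WT libraries in CPM, a gap seen in 34.1% of all tested members. A lean below 0 was not particular to this list. Also below 0 were 59 of 70 cytosolic ribosomal protein genes (median -0.11) and 43 of 51 nuclear-encoded oxidative phosphorylation genes (median -0.15). The gap was seen in 28 genes of each of these 2 lists. The summed level of the listed splicing factor and speckle genes was 11365 and 11133 CPM in WT and 9623 and 9592 CPM in siHMGB2, a small drop. Part of this drop comes from scaling CPM to unadjusted library totals, and it is smaller on the scaling of the fit. SRSF11 was at 277 and 296 CPM in the WT libraries and 190.4 and 173 CPM after knockdown (log2 fold change -0.59, SE 0.13, edgeR adjusted p 0.0109), and its call was lost without WT 2 and without siHMGB2 2, where the list had 0 calls, and that of SNRPD3 was also lost without WT 1. Of 19 genes for CTCF, cohesin and chromatin architecture edgeR called 0, with 3 at an unadjusted p under 0.05, and DESeq2 called 1 lower, while 3 were lower by edgeR without siHMGB2 1. CTCF itself was at 49.2 and 50.7 CPM in the WT libraries and 51.9 and 52.5 CPM after knockdown and the speckle scaffold SRRM2 at 417 and 476 CPM in the WT libraries and 368 and 382 CPM after knockdown (edgeR adjusted p 0.595 and 0.474). Of 7 replication-dependent histone genes above 1 CPM, of 56 listed, 2 rose, both calls lost without WT 1, without WT 2 or without siHMGB2 1. Of 70 cytosolic ribosomal protein genes edgeR called 0, with 1 at an unadjusted p under 0.05, and DESeq2 called 0.

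Drug-treated cells give a second setting with lowered HMGB2 and are set beside the knockdown here. Inflachromene is a small molecule that binds HMGB1 and HMGB2, and the labels describe the treated cells as senescent. ICM 1 and 2 held 8.13 and 9.599 CPM of HMGB2, and ICM 3 and 4 held 7.65 and 11.5 CPM, above the 3.18 and 3.52 CPM of siHMGB2. Fitted directly against ICM 3-4, 30.6% of the tested members were called higher in siHMGB2 and 24.3% lower, and against ICM 1-2, whose 2 libraries differed widely, 0.346% were called in either direction. The treated and untreated libraries differ as sets, so library set and treatment cannot be told apart. Against ICM 3-4, siHMGB2 was higher in 35 of 45 proliferation genes and lower in 2 (median 3.42). MKI67 was at 30.5 and 37.8 CPM in siHMGB2 and at 0.0418 and 0.158 CPM in ICM 3 and 4 (log2 fold change 8.59, edgeR adjusted p 8.18e-05). NRF2 targets were lower in siHMGB2 in 22 of 26, with NQO1 at 380.3 and 349 CPM against 2093 and 2088 CPM (log2 fold change -2.27, edgeR adjusted p 2.44e-04). WT, for comparison, held 944 and 886 CPM of NQO1, and ICM 1 and 2 held 340.2 and 1251 CPM, on both sides of siHMGB2 and of WT. Against ICM 1-2 edgeR called 0 of the 26 NRF2 targets, with 4 at an unadjusted p under 0.05 (median -0.15), and NQO1 had a log2 fold change of -0.96 (edgeR adjusted p 0.404). Contractile genes were higher in siHMGB2 in 20 of 24 and lower in 2, with ACTA2 at 456 and 608 CPM against 64.1 and 38.2 CPM (log2 fold change 3.62, edgeR adjusted p 2.31e-04). ICM 1 and 2 held 319 and 56.8 CPM of ACTA2, values that lie on both sides of WT, and against them edgeR called 0 of the 24 contractile genes, with 6 at an unadjusted p under 0.05 (median 0.81).

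Overlapping genes limit some of these values, since how the counting used strand is not given in the sources used here. Of 307 genes that could be found in GENCODE v29 among 309 named genes and called list members, 99 have an exon that overlaps another gene. AMIGO2, FGF2, ACTA2, TAGLN, TPM1, GALNT6, MMP1 and KCNJ2 have an overlapping gene on the opposite strand, and reads of the 2 genes cannot be told apart without strand. Several such partners had log2 fold changes of the same sign, at 1.46 for ACTA2-AS1, 1.83 for PCED1B beside AMIGO2, 0.75 for PCSK7 beside TAGLN, 1.08 for TPM1-AS, -1.09 for NUDT6 beside FGF2, -1.32 for WTAPP1 beside MMP1 and -1.39 for KCNJ2-AS1. Their mean levels were 77.9 CPM for PCSK7, 9.49 CPM for ACTA2-AS1, 4.17 CPM for WTAPP1, 3.61 CPM for PCED1B, 3.28 CPM for NUDT6, 1.32 CPM for TPM1-AS and 1.17 CPM for KCNJ2-AS1. SLC4A8, beside GALNT6, had a log2 fold change of 0.15.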

How the data were processed

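Each deposited file lists raw counts per gene symbol as integers, 1 column per library, which the authors made with HTSeq 0.12.4 after STAR 2.7.3a on hg38, per the submitters' processing notes. The strand setting is not given in the sources used here. Lines for reads given to no gene were dropped (16.9% to 18.0% of the reads in these 4 libraries). Genes were kept by filterByExpr on WT 1-2 and siHMGB2 1-2 (15338 genes), normalized with TMM factors, and compared by the edgeR 4.0.16 quasi-likelihood test (R 4.3.3), with Benjamini-Hochberg adjustment over all 15338. CPM uses unadjusted library totals. The TMM factors were 1.021 and 1.025 in WT 1 and WT 2 and 0.986 and 0.969 in siHMGB2 1 and siHMGB2 2. CPM therefore sets siHMGB2 slightly lower against WT than the fit does, which also bears on the shares of genes with a gap between the arms. SE is the standard error of a log2 fold change. The siHMGB2 libraries were fitted in the same way against ICM 3-4 and against ICM 1-2. The fit was also run on counts simulated with the spread estimated from these 4 libraries. Such counts take over that estimate, so the run is no check of the calls.

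The members and the 43 lists (1353 genes) were chosen with earlier results of these data known. Genes were named by a rule, namely HMGB2, a panel of 13 genes, the 12 highest and 12 lowest called genes averaging 10 CPM or more, the 3 most abundant called genes in each direction, and up to 4 called genes with the largest change in each list. Of the 12 highest, 1 is not reported here. Other list members named in the text, called or not, were chosen after their values were seen. Promoter windows from RefSeq GRCh38.p14 matched 9928 of 12734 members by symbol and were searched in Python 3.11.15 with pandas 2.3.3. Alternatives were scaling by relative log expression or total counts, other filters, DESeq2 1.42.0, a replicate block, stricter thresholds, fits with more libraries and leaving out each library.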

Additional observations from a re-analysis of the deposited data

How the results depend on the processing

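All 1617 called genes kept their sign under every alternative that tested them. In each of them both siHMGB2 libraries lay on the same side of both WT libraries, so the kept sign is no separate check. Calls numbered 1609 with relative log expression scaling, 1725 with total counts, 2001 with no filter, 1738 and 1557 with minimum means of 1 and 10 CPM before the fit, and 1750 in DESeq2. At an adjusted p under 0.01 there were 799 (441 higher, 358 lower), and with a minimum change of 2-fold 455 (239 and 216). The single fit of 14 libraries gave 0, that is 0 higher and 0 lower, with HMGB2 at edgeR adjusted p 0.201, and the fit of 10 libraries without ICM 1-2 and siBANF1 gave 257 (126 and 131). Leaving out 1 library gave 804 to 2065 calls, 406 to 1131 higher and 381 to 934 lower, with the lowest total without WT 1. With a replicate block 2329 were called (1311 higher, 1018 lower), the 1617 among them. The labels do not say that the numbers pair the libraries, and the correlation across genes of WT 1 minus WT 2 with siHMGB2 1 minus siHMGB2 2 was 0.2175 (0.1624 over genes not called).

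Changes of sign occurred in genes that the reported fit did not call. The log2 fold change of MKI67 was 0.00 in the reported fit, -0.0032 with relative log expression scaling, -0.064 with total counts, -0.0075 with no filter, -0.0022 and -0.0061 with minimum means of 1 and 10 CPM, -0.0032 in DESeq2, -0.0023 with the replicate block, -0.0071 with 14 libraries, -0.0048 with 10 libraries, and -0.172 to 0.150 with 1 library left out. HMGB1 was at -0.044 with total counts and -0.066 to 0.096 with 1 library left out, where LMNB1 was at -0.096 to 0.015, IL6 at -1.20 to 0.026 and SON at -0.189 to 0.085. At 2 libraries per group and 33561766 to 41168932 counts, the spread between libraries limits the calls.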

Other observations

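Beyond the groups above, cell surface signals and sugar-transferring enzymes held several called genes. Of 20 potassium channel genes 4 rose and 3 fell, and the same counts stood without WT 1, without WT 2 and without siHMGB2 2. KCNH1, a voltage-gated channel, was at 1.67 and 2.44 CPM in the WT libraries and 7.57 and 11.2 CPM after knockdown (log2 fold change 2.25, SE 0.27, edgeR adjusted p 1.76e-04), and the accessory subunit KCNE4 at 45.2 and 43.3 CPM in the WT libraries and 24.4 and 18.1 CPM after knockdown (log2 fold change -0.99, SE 0.15, edgeR adjusted p 8.93e-04). Of 37 glycosyltransferases 8 rose (5 without WT 1) and 2 fell (1 without WT 2 or without siHMGB2 2). CHSY3, a chondroitin synthase, rose from 1.67 and 1.73 CPM to 4.901 and 5.15 CPM (log2 fold change 1.63, SE 0.27, edgeR adjusted p 0.00161), and C1GALT1, which extends mucin-type chains, fell from 32.6 and 28.7 CPM to 15.6 and 13.1 CPM (log2 fold change -1.03, SE 0.15, edgeR adjusted p 5.49e-04). GALNT1 and GALNT10, which start such chains, rose from 89.2 and 81.7 CPM to 147 and 129 CPM and from 89.4 and 107 CPM to 144 and 184 CPM. Of 38 semaphorin, ephrin, netrin and slit genes 9 rose and 2 fell, with EFNB2, a membrane ligand of Eph receptors, at 4.38 and 5.08 CPM in the WT libraries and 11.3 and 13.7 CPM after knockdown (log2 fold change 1.47, SE 0.20, edgeR adjusted p 3.44e-04), and the higher calls numbered 3 without WT 1 and 5 without siHMGB2 2.

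The list of unfolded protein and ATF4 response genes, which holds genes of amino acid synthesis and transport, had calls in both directions, more of them higher. PHGDH and PSAT1, successive enzymes of serine synthesis, rose from 38.1 and 51.6 CPM to 89.1 and 125 CPM (log2 fold change 1.32, SE 0.18, edgeR adjusted p 3.90e-04) and from 48.9 and 62.2 CPM to 101 and 122 CPM (log2 fold change 1.07, SE 0.15, edgeR adjusted p 4.79e-04), and the transporter SLC7A1 rose from 35.4 and 45.3 CPM to 63.7 and 91.1 CPM. CTH, which makes cysteine, fell from 13.3 and 12.3 CPM to 6.11 and 6.39 CPM (log2 fold change -0.97, SE 0.17, edgeR adjusted p 0.00259). So did the cystine importer SLC7A11, which is counted both in this list and with the NRF2 targets. Of 41 genes in this list 8 rose and 3 fell (median 0.11). The others that rose were CHAC1 (0.94), PSPH (0.89), SLC7A5 (0.92), CEBPG (0.95) and NUPR1 (0.94), with log2 fold changes in parentheses. The other that fell was DNAJB9 (-0.61). Of 13 genes of the RNA interference machinery 3 fell and 1 rose, and DICER1 was at 92.01 and 115 CPM in the WT libraries and 62.2 and 64.98 CPM after knockdown (log2 fold change -0.64, SE 0.14, edgeR adjusted p 0.00803), a call that was lost without WT 2 (log2 fold change -0.48, edgeR adjusted p 0.142), as were the other lower calls of the list. TCF21, a transcription factor of lung fibroblasts, fell from 354 and 315 CPM to 151 and 116 CPM (log2 fold change -1.26, SE 0.15, edgeR adjusted p 1.84e-04). ADAT2, a subunit of a tRNA deaminase, was at 65.04 and 60.9 CPM in the WT libraries and 19.01 and 13.6 CPM after knockdown (log2 fold change -1.89, SE 0.16, edgeR adjusted p 2.25e-05), and PEX3, a peroxisome assembly factor, was at 56.7 and 52.8 CPM in the WT libraries and 18.2 and 12.05 CPM after knockdown (log2 fold change -1.796, SE 0.17, edgeR adjusted p 4.48e-05). They adjoin on chromosome 6 and both were named after their values were seen.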
